A study of Rattus norvegicus with 18 samples.

Results

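Mast cell genes were followed through fracture healing in the rat femur by all probe sets annotated to 5 symbols, Cma1, Mcpt1l1, Tpsab1, Cpa3 and Ms4a2. Those symbols took in 8 of the 8799 probe sets of the array and 5 of the 4736 genes it names. Signals of 200 or more on at least 3 of the 18 arrays were found for 6 of the 8 probe sets, which were tested. The other two, both for Ms4a2, never exceeded a signal of 106.7 and are described by that value alone. Mcpt1l1 had 2 tested probe sets, called here the brighter and the dimmer, and each of the other genes had 1.

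Total RNA came from femora of intact female Sprague-Dawley rats that were young (6 weeks old), adult (26 weeks) or older (52 weeks). Rats without fracture were sham controls, and the others had a closed mid-shaft fracture held by an intramedullary rod for 3 days or for 1, 2, 4 or 6 weeks. For the older control array the title says no fracture and the description the time of fracture. RNA of 2 rats was pooled on each array. The 18 arrays are the first series of the study, with 1 array for each age and time, and the study's further arrays of independent rats are not analysed here. An age at a time therefore had no replicate among these arrays, and the 3 ages served as the replicates of a time. The segment held callus, cortical bone and marrow together, so that a lower signal from fewer mast cells and one from less mRNA per mast cell cannot be told apart.

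Mast cells mature in the tissue from marrow precursors under stem cell factor, the ligand of the receptor Kit. Their granules store chymases, tryptases and carboxypeptidase A bound to the proteoglycan serglycin, together with histamine. Crosslinking of immunoglobulin E on the high-affinity receptor, whose beta chain is the product of Ms4a2, releases the granules. In bone they lie in the marrow, and they are also known from fracture callus.

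The bases just before the start of transcription are shown for the 4 members with an entry in the RefSeq promoter table (build GRCr8), because these genes moved together through healing. Mcpt1 is shown beside Mcpt1l1, with which it shares an older name. Each line gives 120 bases, 5′ to 3′ on the strand of the gene and ending at the last base before the start. Capitals mark a match to AGATAA or to the related letters TGATAA, which are bound by GATA factors.
Cma1, chr15:33390134-33390253, minus strand: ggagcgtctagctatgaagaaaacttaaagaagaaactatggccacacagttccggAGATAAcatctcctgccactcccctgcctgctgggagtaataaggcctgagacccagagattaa
Mcpt1l1, chr15:33876896-33877015, minus strand: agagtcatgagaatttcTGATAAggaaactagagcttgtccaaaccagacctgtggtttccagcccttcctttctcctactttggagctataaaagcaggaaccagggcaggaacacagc
Mcpt1, chr15:33841486-33841605, plus strand: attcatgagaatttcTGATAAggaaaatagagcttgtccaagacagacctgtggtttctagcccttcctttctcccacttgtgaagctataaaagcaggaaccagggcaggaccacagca
Tpsab1, chr10:14867303-14867422, minus strand: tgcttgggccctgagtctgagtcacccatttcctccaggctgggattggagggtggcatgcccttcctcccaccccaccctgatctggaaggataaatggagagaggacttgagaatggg
Cpa3, chr2:104673238-104673357, minus strand: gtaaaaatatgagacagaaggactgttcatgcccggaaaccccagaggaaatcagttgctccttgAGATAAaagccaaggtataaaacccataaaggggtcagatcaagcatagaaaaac

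The GATA sequence in its form AGATAA and in its form TGATAA, the E-box in its form CATGTG and in its form CACGTG were searched on either strand in the 300 bases from 250 before to 50 after the start. These forms of the E-box are bound by Mitf, a transcription factor that mast cells need. Cma1 held AGATAA from 64 to 59 bases before the start, Cpa3 held it from 55 to 50 bases before, and Mcpt1l1 held TGATAA from 103 to 98 bases before, all on the strand of the gene. Of 33469 windows in the table, 11.6% held AGATAA, 9.03% TGATAA and 18.9% either. Cpa3 also held CATGTG on the opposite strand from 144 to 139 bases before the start, which 14.0% of windows held. CACGTG was in none of the 4 members' windows and in 6.42% of all windows, and none of the letters searched was in the Tpsab1 window. Mcpt1l1 and Mcpt1 were identical at 202 of 262 aligned columns (77.1%) over the 250 bases before the start, against 46.3% to 53.6% for the other pairs of these 5 genes. RefSeq gives rat mast cell protease 1 as an older name of both, so the Mcpt1l1 signals are uncertain between these copies.

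Chymases came first. Cma1 encodes an alpha-chymase, a protease of the connective tissue mast cell granule. Without fracture its signal was 750 in young, 920 in adult and 2033 in older rats. It was 221, 138 and 133 at 3 days and 368, 352 and 246 at 1 week, in the same order of ages. All 6 of these early arrays lay below all 3 without fracture. At 2 weeks the young array had reached 1919 while the adult and older arrays were at 391 and 333. At 4 weeks the signals were 3732, 2199 and 2895 and at 6 weeks 2113, 1877 and 2956, and the 4-week arrays were above every array without fracture.

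Mcpt1l1 encodes a beta-chymase of the rat mast cell protease 1 kind. Its brighter probe set read 2478, 2284 and 2988 without fracture in young, adult and older rats. It read 1515, 1042 and 1446 at 3 days and 1838, 1616 and 1514 at 1 week, below all 3 arrays without fracture. The 2-week signals were 4083, 2331 and 1943, of which the young one alone stood above the range without fracture. At 4 weeks it read 6456, 5926 and 6728 and at 6 weeks 6541, 4424 and 6966, so that all 6 late arrays were higher than all 12 others. The dimmer probe set read 293, 72.8 and 138 without fracture, 56.3, 19.3 and 28.1 at 3 days and 95.6, 14.4 and 29.2 at 1 week. Those values at 3 days and 1 week were all under 100, the floor to which lower signals were set before the tests. At 2 weeks it read 752, 59.7 and 73.0, at 4 weeks 1550, 929 and 1896, and at 6 weeks 796, 314 and 1330.

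Tpsab1 encodes a tryptase, a trypsin-like granule protease that works as a tetramer held by heparin. Its signals without fracture were closely grouped, at 224, 200.1 and 212 in young, adult and older rats. They were 155, 120.1 and 126 at 3 days, all below the arrays without fracture, and 175, 228 and 153 at 1 week, where the groups overlapped. At 2 weeks they were 685, 192 and 236. The 4-week signals of 1148, 940.4 and 1376 and the 6-week signals of 1089, 718 and 1218 were all higher than on any other array.

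Cpa3 encodes the mast cell carboxypeptidase A, which trims peptides from their carboxyl end. Its signals were 203, 69.2 and 307 without fracture, 106, 47.3 and 32.6 at 3 days and 113, 108 and 72.0 at 1 week. The adult array without fracture lay within the range of the early ones, so the groups overlapped. At 2 weeks the signals were 499, 81.1 and 131. They were 808, 555 and 1286 at 4 weeks and 850.3, 347 and 840.3 at 6 weeks, all above the 3 arrays without fracture.

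Ms4a2, the receptor beta chain, took another course. It read 168, 67.6 and 537 without fracture, 37.7, 6.7 and 28.8 at 3 days and 27.9, 8.3 and 4.2 at 1 week. All 6 early signals were below the 3 without fracture. At 2 weeks it read 105, 35.1 and 60.5, at 4 weeks 348, 138 and 201 and at 6 weeks 319, 90.4 and 235. The late arrays were above all 6 early ones but did not leave the range without fracture, which the older array set at its upper end.

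**Figure D1:**
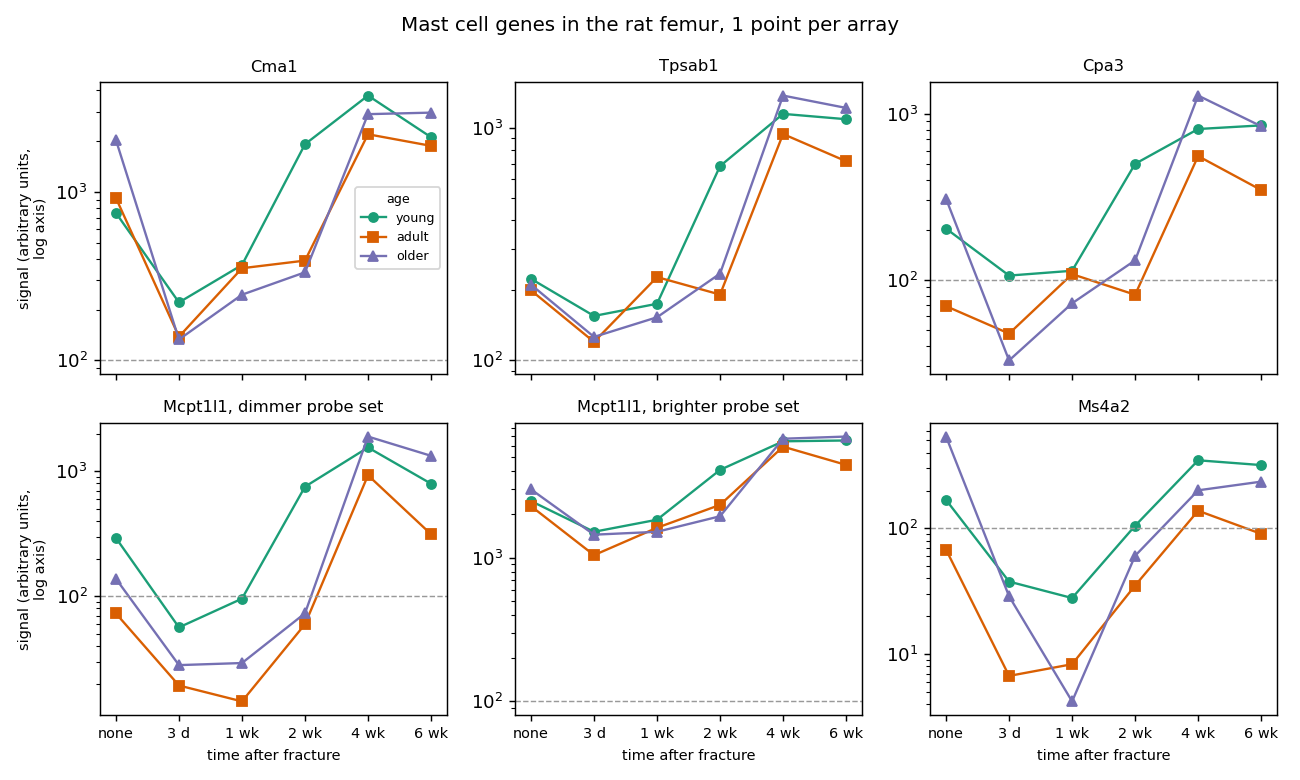
Signal (arbitrary units, log axis) of the 6 tested probe sets against time after fracture, with 1 point per array and lines joining the arrays of an age (young, adult, older); the dashed line is the floor of 100. Cma1 read 133 to 221 at 3 days and 2199 to 3732 at 4 weeks, and at 2 weeks the young array was the highest of the 3 in every panel.

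By mean signal over the 3 ages, 4 weeks was the highest time for the 5 protease probe sets and 6 weeks came next, whereas for Ms4a2 no fracture was the highest. That order of Ms4a2 rested on the older array without fracture (537), since in young and adult rats its highest time was 4 weeks. The mean ± SD of Cma1 was 2942 ± 767 at 4 weeks and 2315 ± 567 at 6 weeks (n = 3 arrays each), and these neighbors in the order did not differ beyond their spread. For Tpsab1 the corresponding means were 1155 ± 218 and 1008 ± 259. No member was called between 6 and 4 weeks, where limma adjusted p ran from 0.941 to 0.993 and no probe set of the array was called. The lowest mean was at 3 days for the proteases and at 1 week for Ms4a2.

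The first comparison asked which members were down-regulated early. Against no fracture, 2 of 6 were called lower at 3 days (limma, adjusted p below 0.05), where 19.7% of the 4669 probe sets tested were called lower. Cma1 fell by 2.81 ± 0.49 on the log2 scale (SE; adjusted p = 0.000359), which was 7.02-fold lower. The brighter Mcpt1l1 probe set fell by 0.96 ± 0.23 (adjusted p = 0.00348), a call lost with only the 6 arrays compared (adjusted p = 0.0523) and by the methods' two-sample test (0.051), which called Cma1 (0.0376) and Tpsab1 (0.0394). The other 4 had log2 changes of -0.67 to -1.06 with adjusted p of 0.063 to 0.324, each lower at the 3 ages by raw signal. At 3 days 2 arrays lay below the floor for Cpa3 and all 3 for Ms4a2 and the dimmer Mcpt1l1 probe set, and with a floor of 20 in place of 100, 5 of 6 were called. At 1 week 1 of 6 was called lower, Cma1, by 1.82 ± 0.49 (adjusted p = 0.0121), beside 10.5% of all probe sets. That call was lost without the older no-fracture array or the older 1-week array, when 0 of 6 were called.

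At 2 weeks 0 of 6 were called by limma, beside 21.1% of all probe sets in either direction. At an unadjusted p below 0.05 limma had 1 of 6, beside 32.9% of all. The methods' two-sample test called 0 of 6. Log2 changes ran from -1.04 for Ms4a2 to 0.57 for Tpsab1.

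At 4 weeks 4 of 6 were up-regulated, while 5.05% of all probe sets were called higher. The median log2 change was 1.77 over the 6 and 0.04 over all probe sets tested. Tpsab1 rose 5.39-fold, by 2.43 ± 0.33 on the log2 scale (adjusted p = 0.000852). On the floored scale the dimmer Mcpt1l1 probe set rose by 3.13 ± 0.54 (adjusted p = 0.00346) and Cpa3 by 2.18 ± 0.43 (adjusted p = 0.00645), with 1 array without fracture set to the floor for each. Outside the 4- and 6-week arrays, the dimmer probe set reached 200 only on the young no-fracture (293) and young 2-week (752) arrays. It thus entered the tests through late arrays, and its calls at 4 and 6 weeks are no more than descriptions. The brighter Mcpt1l1 probe set rose 2.48-fold (1.31 ± 0.23, adjusted p = 0.0036). These 4 were higher than without fracture at each of the 3 ages. Cma1 was higher at each age too, by 1.36 ± 0.49, with an adjusted p of 0.117. Ms4a2 had a log2 change of 0.03 ± 0.44 (adjusted p = 0.985).

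The 4 that rose at 4 weeks were also called at 6 weeks, where 3.19% of all probe sets were called higher. Tpsab1 was higher by 2.22 ± 0.33 (adjusted p = 0.00205), the dimmer Mcpt1l1 probe set by 2.12 ± 0.54 (0.0362), Cpa3 by 1.77 ± 0.43 (0.0282) and the brighter Mcpt1l1 probe set by 1.19 ± 0.23 (0.0106). Cma1 changed by 1.02 ± 0.49 (0.259) and Ms4a2 by -0.09 ± 0.44 (0.933). These calls rested on the spread of all 18 arrays. With limma fitted to the 6 arrays compared alone, 0 of 6 were called at 4 weeks and 0 of 6 at 6 weeks, as was no other probe set. The methods' two-sample test also called 0 of 6 and no other probe set. At an unadjusted p below 0.05 it had 4 of 6 at each time. Beside these stood 498 of all probe sets tested at 4 weeks and 377 at 6 weeks. Those 4 included the dimmer Mcpt1l1 probe set, which passed the filter through late arrays. Without the older 6-week array 1 of 6 was called at 6 weeks, and 2 of 6 without the adult no-fracture or the adult 6-week array.

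**Figure D2:**
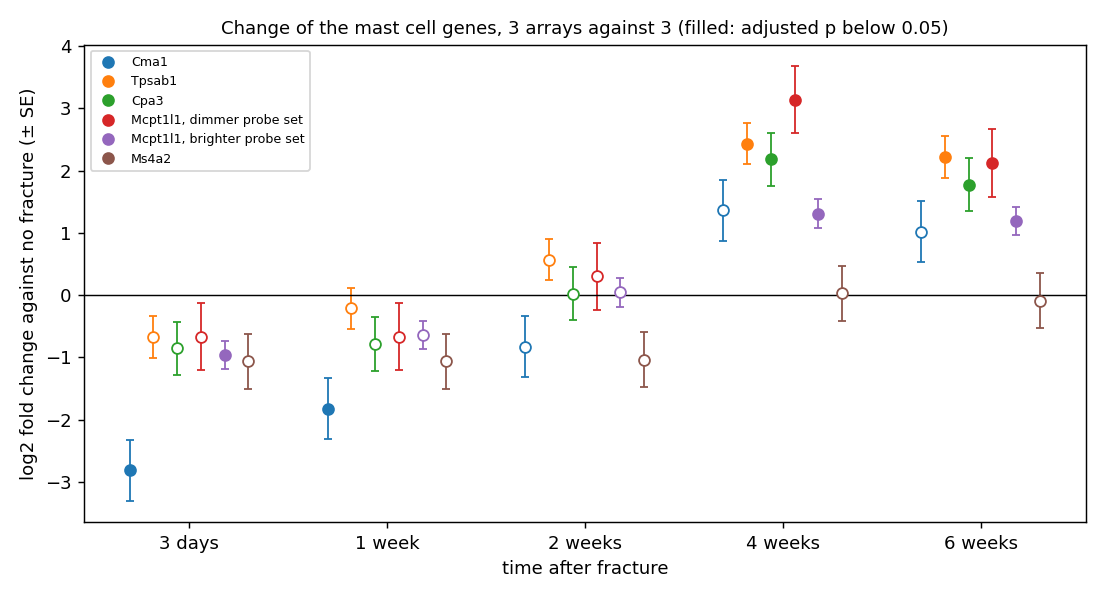
Log2 fold change against no fracture with its SE (limma, 3 arrays against 3, signals floored at 100) for the 6 tested probe sets at each time after fracture; filled points have an adjusted p below 0.05. The proteases lay below 0 at 3 days, where Cma1 was at -2.81, and above 0 at 4 weeks, where Ms4a2 was at 0.03.

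The 4- and 6-week arrays were then set against those at 3 days and 1 week. Cma1 was higher late by 3.51 ± 0.34 on the log2 scale (adjusted p = 7.02e-06), Tpsab1 by 2.76 ± 0.23 (2.83e-06) and the brighter Mcpt1l1 probe set by 2.05 ± 0.16 (2.09e-06). The 6 late arrays lay above the 6 early ones for each, and 16.4% of all probe sets were called higher in this comparison. Cpa3 was higher by 2.79 ± 0.30 (1.65e-05) and the dimmer Mcpt1l1 probe set by 3.30 ± 0.38 (3.00e-05), also without overlap. These differences depend on the floor, to which 3 of the 6 early arrays were set for Cpa3 and 6 of 6 for the dimmer Mcpt1l1 probe set. Ms4a2 was higher by 1.03 ± 0.31 (0.0201), with its 6 early arrays below the floor, and it lost the call without the young 4-week, young 6-week or older 1-week array. Cpa3, Ms4a2 and the dimmer Mcpt1l1 probe set reached 200 on no array at 3 days or 1 week and so entered the test through other arrays, which is why the count of 6 of 6 is no more than a description.

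Steps between neighboring times were added after the values were seen. Between 2 and 4 weeks 24 probe sets were called higher (0.514%) and 2 lower. The 24 held 4 members, Tpsab1 at 1.86 (adjusted p = 0.0197), Cpa3 at 2.16 (0.0296), and the dimmer and brighter Mcpt1l1 probe sets at 2.83 (0.0245) and 1.27 (0.0197). Of these, the dimmer Mcpt1l1 probe set had passed the filter through its 4- and 6-week arrays, as described above. Cma1 had a log2 change of 2.19 (0.0564) and Ms4a2 of 1.07 (0.428). Tpsb2, a further tryptase, was among the 24 at 1.28 (0.0172), and so were 2 probe sets annotated to several Mcpt8 relatives. The rest with a name were Ighvl1 (2 probe sets), Cd72, Cd79b and Cd37, which are B cell genes, with Scd, Mgst1 and Vcam1. None of the 6 members was called from 3 days to 1 week, from 1 to 2 weeks or from 4 to 6 weeks. From 3 days to 1 week 58 of all 4669 probe sets were called higher and 90 lower. From 1 to 2 weeks and from 4 to 6 weeks 0 of the 4669 were called in either direction. The call of the 4 members between 2 and 4 weeks was lost, with 0 of 6 called, when any 1 of the young 4-week, adult 2-week, adult 4-week, older 2-week and older 4-week arrays was left out.

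The 15 arrays of fractured femora served to compare ages. Older against young gave 0 of 6 called by limma (0.15% of all probe sets; at an unadjusted p below 0.05, 1 of 6 and 20.8% of all), with a median log2 difference of -0.31 and a lowest adjusted p of 0.196. Adult against young gave 0 of 6 (0% of all probe sets called; unadjusted, 5 of 6 and 13.2% of all), with a median of -0.70 and a lowest adjusted p of 0.293. Older against adult gave 0 of 6 (3.73%; unadjusted, 0 of 6 and 26.0% of all), with a median of 0.29. Within 4 and 6 weeks, older against young gave 0 of 6 (2.81%; unadjusted, 0 of 6 and 22.1% of all), and within 1 and 2 weeks 0 of 6 (0.514%; unadjusted, 4 of 6 and 13.3% of all), where the median was -0.96 and the lowest adjusted p 0.175. Set against the same difference in sham rats, the difference of older from young rats with a fracture was called in 0 of 6 (2.55%; unadjusted, 2 of 6 and 16.5% of all), with a lowest adjusted p of 0.135.

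Young rats had the highest signal of the 3 ages at 2 weeks in 6 of 6 probe sets, an order that 36.1% of all probe sets had at that time. At 3 days they were highest in 6 of 6 as well (40.1% of all). Adult rats were the lowest of the 3 ages in 6 of 6 at 4 weeks (32.6% of all) and in 6 of 6 at 6 weeks (36.2%), as they were in 5 of 6 without fracture (41.6%). With 1 array for each age and time these orders have no test. Neutrophil markers moved with the 2-week order, with a summed signal of 6632 in young against 607 and 603 in adult and older rats. Erythroid markers summed to 54268, 12711 and 10869 and B cell markers to 827, 224 and 357. Their part in the order of the mast cell genes was not tested.

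The members varied together across the 18 arrays. Pearson's r between log2 signals of pairs of the 5 protease probe sets was 0.853 to 0.966, and between Ms4a2 and each of them 0.501 to 0.68. The 2 Mcpt1l1 probe sets correlated at 0.927. These are descriptions over arrays that share times and ages, and they have no p. The probe set most like the mean of the members, among all others tested with 1 symbol, was that of Milr1, the mast cell immunoglobulin-like receptor (also named allergin-1), at r = 0.935 and Spearman's rho = 0.893. Vcam1, an adhesion molecule of vessels and stroma, followed with r = 0.932 and 0.92 for its 2 probe sets, and Ighvl1 with 0.917 and 0.913. Tpsb2 was closest to Tpsab1 (r = 0.948) and to Mcpt1l1 (0.93), and Cd72 to Cma1 (0.923). Milr1 was closest to Cpa3 (0.92) and Celf2 to Ms4a2 (0.952). Second came Ighvl1 for Cma1 (0.918), Cd3g for Tpsab1 (0.88), Vcam1 for Cpa3 (0.912), Milr1 for Mcpt1l1 (0.914) and Acap1 for Ms4a2 (0.912).

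Milr1 read 237, 229 and 463 without fracture and 243, 175 and 199 at 3 days in young, adult and older rats. It read 178, 182 and 217 at 1 week and 598, 435 and 533 at 4 weeks. Its 4- and 6-week arrays were higher than those at 3 days and 1 week by 1.47 ± 0.21 (limma adjusted p = 0.000146). Against no fracture Milr1 was not called at 4 weeks (0.82 ± 0.29, adjusted p = 0.117) or at 6 weeks (0.98 ± 0.29, 0.0706). Tpsb2 read 577, 693 and 526 without fracture and 1242, 1335 and 1429 at 4 weeks. It rose by 1.16 ± 0.22 at 4 weeks (adjusted p = 0.00507) and by 1.36 ± 0.22 at 6 weeks (0.00291).

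Of the other granule genes, 8 of 18 were on the array and 4 were tested. The lists were counted on 1 probe set per gene, that of highest mean signal. At 3 days 1 of the 4 was higher (24.5% of all probe sets were) and 1 lower (19.7%). At 4 weeks again 1 was higher (5.05%) and 1 lower (1.43%), with a median of 0.47 against 0.04 for all. Srgn, which encodes serglycin and is made by many blood cells, fell by 2.26 ± 0.43 at 3 days (adjusted p = 0.000709) and by 3.26 ± 0.43 at 1 week (0.000177). It was still lower at 4 weeks, by 1.75 ± 0.43 (0.023), a time when Tpsab1 and Cpa3 were higher. Ctsc, encoding the dipeptidase that activates granule proteases in several cell types, was up-regulated by 1.19 ± 0.25 at 3 days (adjusted p = 0.00156).

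Genes of the immunoglobulin E receptor and its signals numbered 12 of 14 on the array, with 10 tested. At 3 days 2 were higher and 4 lower, beside 24.5% and 19.7% of all probe sets, and 6 of 10 were higher at 4 and 6 weeks than at 3 days and 1 week, beside 16.4%. On its tested probe set Fcer1a, the receptor alpha chain, read 35.9, 9.2 and 95.3 without fracture and 250, 80.6 and 202 at 4 weeks. It rose from early to late by 0.70 ± 0.21 (adjusted p = 0.0192), with all 6 early arrays set to the floor. Fcer1a entered the tests only through arrays at 4 and 6 weeks. Its call, which is among the 6 of 10, is thus no more than a description. Its other probe set did not exceed 124. Syk, the kinase recruited by the receptor and by B cell receptors, fell by 1.74 ± 0.32 at 3 days (adjusted p = 0.000533) and was 1.81 ± 0.23 higher late than early. Plcg2, which acts after Syk, fell by 1.34 ± 0.27 at 3 days, whereas Fyn, a kinase of the Src family, rose by 1.04 ± 0.29. Ptpn6, a phosphatase that dampens such signals, fell by 1.15 ± 0.33 at 3 days (adjusted p = 0.0105) on 1 of its 2 tested probe sets, and the other had a log2 change of -0.57 (0.168). On the first, the difference of older from young rats with a fracture, against that in sham rats, was -1.68, and on the other -0.50. The sham part of this difference rests on 1 array for each age.

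Growth and lineage genes had 5 of 15 tested, with 10 on the array. Il1rl1, the receptor of interleukin-33, read 8.9 to 55.1 without fracture and 335, 516 and 442 at 3 days on 1 of its 2 probe sets. There it rose by 2.09 ± 0.40 (adjusted p = 0.00076) from controls that were all set to the floor. This probe set needed its 3-day arrays to pass the filter, so its calls are no more than descriptions. On the other, Il1rl1 had log2 changes of -0.28 at 3 days (adjusted p = 0.513) and 0.53 from early to late (0.0974), neither called. Its ligand gene Il33 read 134, 84.8 and 242 without fracture and 315, 453 and 490 at 3 days, and rose by 1.48 ± 0.31 (0.00163). The Il1rl1 probe set that rose and that of Il33 were highest at 3 days on the young and adult arrays. On the older arrays they were highest at 1 week, with 556 for Il1rl1 and 564 for Il33. They were lower late than early, with log2 differences of -1.56 ± 0.28 and -0.75 ± 0.22. Gata1, the GATA factor of erythroid cells, megakaryocytes and mast cells, fell by 3.11 ± 0.50 at 3 days (adjusted p = 0.000199), a size that the floor sets, since its 3 arrays at 3 days read 76.2, 47.3 and 60.1.

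Kit reached at most 115 and Kitlg, its ligand, 82.5, so neither was tested. Hdc, the histamine-forming enzyme, did not pass the filter either. It read 84.9, 48.0 and 265 without fracture, 13.6, 11.6 and 8.7 at 3 days and 169, 66.7 and 192 at 4 weeks. The probe set of Mcpt1 itself read 11.1 to 157. Fcer1g was not analysed here.

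Among mediator genes 4 of 13 were tested, with 12 on the array. At 3 days 2 were lower (19.7% of all probe sets were), at 1 week 3 were lower (10.5%), and none was called higher at 4 weeks (5.05%). Alox5ap, which presents arachidonate for leukotriene synthesis in many leukocytes, fell by 2.06 ± 0.41 at 1 week (adjusted p = 0.00173) on 1 of its probe sets. On the other it fell by 1.45 ± 0.37 (0.00843). Ptgs1, a cyclooxygenase, fell by 1.47 ± 0.34 at 1 week (0.00537). Hpgds, which makes prostaglandin D2, fell by 0.81 ± 0.28 at 1 week (0.0466) and was 0.81 ± 0.20 higher late than early (0.00691). Its adult and older arrays at 1 week read 97.1 and 83.6 and were set to the floor. Hpgds passed the filter only with the help of its late arrays, so its call late against early is no more than a description. Targets of the proteases and of histamine had 4 of 14 tested, with 9 on the array. Agt, the precursor of angiotensin, which chymase can form, fell by 1.22 ± 0.30 at 3 days (adjusted p = 0.00431) and was 1.49 ± 0.21 higher late than early. All 3 of its arrays at 3 days were set to the floor, as were the adult and older arrays at 1 week (99.8 and 62.2). Agt passed the filter only with the help of its late arrays, so its call late against early is no more than a description. Agtr1a, an angiotensin receptor, was called higher at 3 days on 2 of its 3 tested probe sets, by 2.10 ± 0.30 (9.2e-05) from controls all set to the floor and by 1.69 ± 0.48 (0.00993), while its other probe set had a log2 change of 0.58 (0.104).

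**Figure D3:**
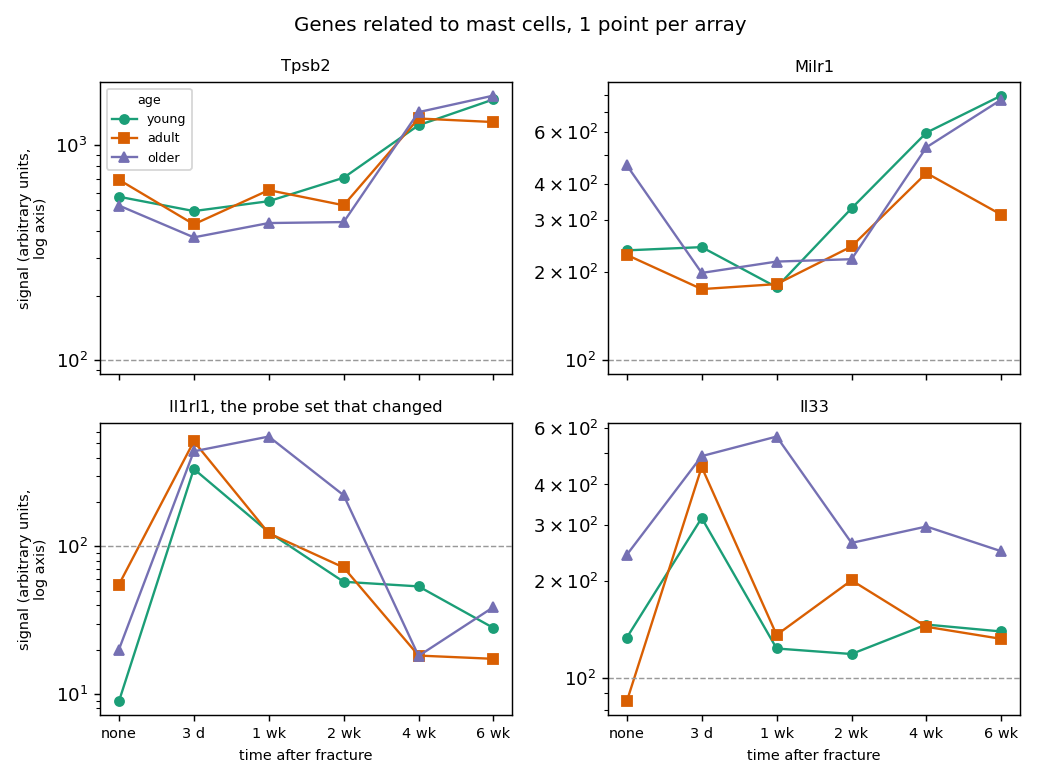
Signal (arbitrary units, log axis) against time after fracture of Tpsb2, Milr1, Il1rl1 (the probe set that changed) and Il33, with 1 point per array and lines joining the arrays of an age (young, adult, older); the dashed line is the floor of 100. Tpsb2 and Milr1 were high at 4 and 6 weeks, whereas Il1rl1 read 335 to 516 at 3 days and at most 53.6 at 4 weeks.

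Markers of other marrow and tissue cells were read beside the members. The summed signal of the 5 mast cell genes was 3541 to 6077 without fracture, 1354 to 2035 at 3 days, 9760 to 12491 at 4 weeks and 7457 to 12215 at 6 weeks. The brighter Mcpt1l1 probe set weighed most in it, with 6456 of the 12491 in young rats at 4 weeks. All 4 neutrophil genes on the array (of 14 listed) summed to 39378 to 68207 without fracture, 1043 to 13366 at 3 days and 5687 to 26626 at 4 weeks. The 6 erythroid genes (of 12) summed to 75470 to 109589, 7943 to 18294 and 57107 to 64483 at those times, and the 2 B cell genes (of 6) to 644 to 1602, 270 to 496 and 1183 to 1869. None of their genes was at 0 on every array. At 3 days 3 of 3 neutrophil, 5 of 5 erythroid and 2 of 2 B cell genes tested were lower, as Cma1 was. So were 8 of 9 skeletal muscle genes, beside 19.7% of all probe sets, and 2 of 2 macrophage genes were higher (24.5% of all). At 4 weeks and at 6 weeks 0 of the 10 neutrophil, erythroid and B cell genes were called higher than without fracture (5.05% and 3.19% of all). Their medians at 4 weeks were -2.34 for neutrophil, -0.56 for erythroid and 0.49 for B cell genes. From early to late 3 of 3 neutrophil, 5 of 5 erythroid, 2 of 2 B cell and 7 of 9 skeletal muscle genes were higher (16.4% of all). Over the same times 2 of 2 macrophage genes were lower (16.6% of all). The part of these cells in the changes of the mast cell genes was not tested.

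**Figure D4:**
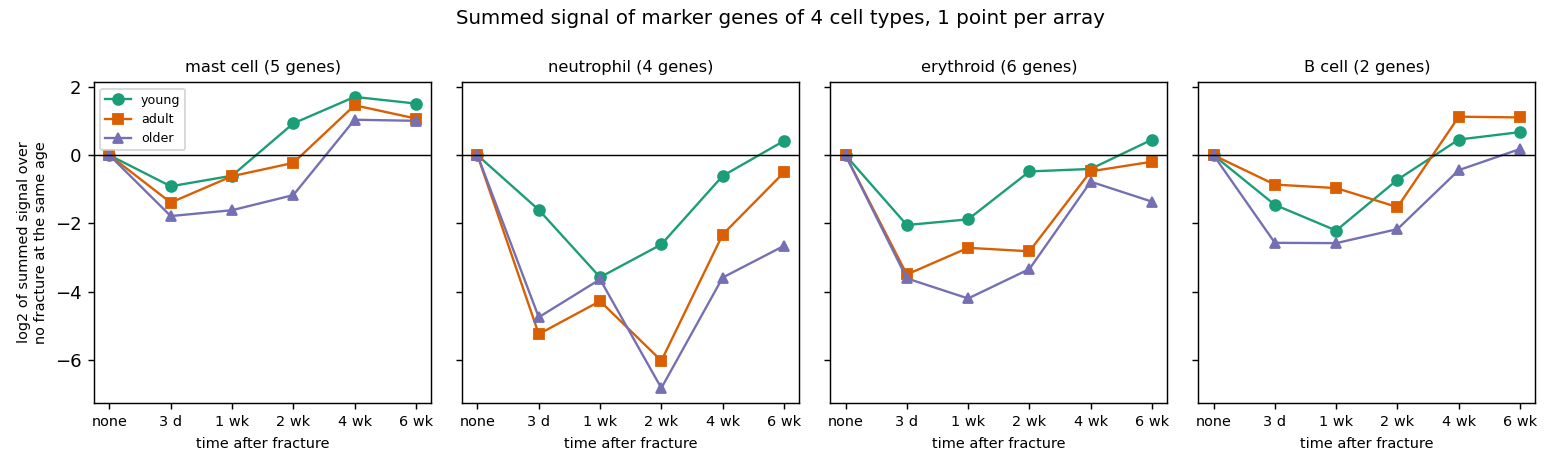
Log2 of the summed signal of the genes of a cell type over the sum without fracture at the same age, against time after fracture, with 1 point per array (young, adult, older) and a line at 0 for no change. Mast cell sums were above no fracture on all 6 arrays at 4 and 6 weeks, whereas neutrophil sums were below it on all 3 arrays at 4 weeks. B cell sums were above it in young and adult rats at 4 weeks and at each age at 6 weeks.

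Arrays were alike in scale, with median signals of 137 to 183 and 37.2% to 43.3% of signals below the floor. The young 6-week array had a ratio of 5′ to 3′ signal of Gapdh of 0.257, against 0.65 to 0.913 on the others. Without it 3 of 6 members were called higher at 6 weeks and 5 of 6 higher late than early.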

How the data were processed

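Total RNA of rat femur was hybridized to 18 Affymetrix rat arrays. Each deposited value is an intensity, the Microarray Suite 5.0 signal of a probe set, and the authors brought every array to an average signal of 500. With 2% trimmed at either end, array means were 500.6 to 500.9. Detection calls of the software were not used here. The number of arrays limits the precision.

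Probe sets were named by the annotation of the platform, with symbols brought up to date through gene identifiers (6994 probe sets). A floor of 100 was applied before log2. The 59 controls were left out, and a probe set was tested if it reached 200 on 3 arrays or more, which 4669 did. Changes were fitted with limma 3.58.1 in R 4.3.3 (lmFit, eBayes with trend, two-sided) with age and time as terms, on 18 arrays for times and on 15 arrays of fractured femora for ages. Fits within periods had 4 residual degrees of freedom. P-values were adjusted by Benjamini and Hochberg over all probe sets tested (threshold 0.05). The error of a time comes from arrays of the 3 ages, so that p-values do not measure the spread between rats of 1 age. The script was tested on simulated data. For 4 weeks against no fracture it recovered 44% of changes of 1 on the log2 scale and 91% of changes of 2. There 10% of the calls were of unchanged probe sets, above the threshold of 0.05. That share was 4.3% for late against early and 4.71% for older against young after fracture.

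The members and lists were chosen with earlier results of these data known. Up to 4 called genes of each list were named by their largest change in any comparison, and Kit, Kitlg, Fcer1a, Fcer1g, Hdc and Srgn always. Other settings were a floor of 20 or of 200, testing without a filter or with one at 500, quantile normalization, robust eBayes, leaving out the age or time term, using all 18 arrays for ages or only the 6 arrays compared for times, the two-sample test of the study's methods, and leaving out each array. Promoter sequences are RefSeq's on GRCr8, and Ms4a2 is named only. Protein sequences were not used here. Figures were drawn with matplotlib 3.10.9.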

Additional observations from a re-analysis of the deposited data

Results flagged for a closer look

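In 4 cases the change against no fracture ran in opposite directions at different ages, each by at least 1 on the log2 scale. Each value rests on 1 array for an age and time, and the differences were not tested. At 2 weeks Cma1 was 1.35 higher in young rats and -1.23 in adult rats, a difference of 2.59. In older rats it was at -2.61, a difference of 3.96 from young. Cpa3 at 2 weeks was at 1.3 in young and -1.23 in older rats, a difference of 2.53. At 4 weeks Ms4a2 was at 1.05 in young and -1.42 in older rats, a difference of 2.47.

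The older array without fracture had the highest signal of the 3 controls for 4 of the 6 probe sets, those of Cma1, Cpa3 and Ms4a2 and the brighter one of Mcpt1l1. It was 2033 against 750 and 920 for Cma1, 307 against 203 and 69.2 for Cpa3, 537 against 168 and 67.6 for Ms4a2, and 2988 against 2478 and 2284 for Mcpt1l1. On that array neutrophil markers summed to 68207 and erythroid markers to 109589, also the highest of the 3 controls, and their part in these differences was not tested.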

How the results depend on the processing

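The counts below are of the 6 member probe sets called. At 3 days 2 were called, with a floor of 20 it was 5, and with only the 6 arrays compared 1. Leaving out an array gave 2 to 4 (4 without the young 2-week array). At 1 week 1 was called, with a floor of 20 it was 3, with a filter of 500 it was 2, without a filter 0, by the two-sample test 0, and leaving out an array gave 0 to 2 (2 without the young no-fracture, adult no-fracture, young 2-week or older 2-week array, 0 without the older no-fracture or older 1-week array). At 2 weeks 0 were called, and leaving out an array gave 0 to 1, the 1 without the young 2-week array. At 4 weeks 4 were called, with only the 6 arrays 0, by the two-sample test 0, and leaving out an array gave 3 to 5. At 6 weeks 4 were called, without a filter 2, without the age term 2, with only the 6 arrays 0, by the two-sample test 0, and leaving out an array gave 1 to 4. From 2 to 4 weeks 4 were called, without a filter 0, without the age term 1, with only the 6 arrays 0, and leaving out an array gave 0 to 5. Older against young at 1 and 2 weeks had 0, with a floor of 20 it had 1, and leaving out an array gave 0 to 2 (2 without the young 1-week array). The departure from no fracture had 0, and 1 with a floor of 200 and 1 without a filter. Late against early had 6, and 5 to 6 when an array was left out. The other 4 comparisons of ages had 0 under every setting run. Of 544 values that other settings gave for the 21 called changes, 466 kept direction and call, 78 lost the call and 0 reversed. The cause of these differences was not tested. Age is a term of the time fits and so pairs the arrays of an age, and the setting without it is its unpaired form. Beyond this, no pairing by replicate number could be made, since each age and time had 1 array.

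The number of arrays, 3 a time with 1 for each age, and the floor limit what the dim probe sets can show. Signals under 100 have no order in the tests, so changes of Ms4a2, Cpa3 and the dimmer Mcpt1l1 probe set between low arrays are not measured.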
